A study of Mus musculus with 14 samples.

Results

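The 10 genes described here encode a liver hormone, the receptors through which liver answers circulating hormones, and a secreted pair of the growth hormone axis. The set (Fgf21, Klb, Fgfr4, Lepr, Gcgr, Ghr, Igf1, Igfals, Adipor1 and Adipor2), 10 of 22180 genes measured, was chosen by name with the log2 levels of these same arrays in the 3 groups already known, so levels and differences are given as a description. Each level was read from the probe set annotated with that gene alone and with the highest mean over 14 arrays. Each of the 10 genes had 1 probe set annotated with it alone, so no choice between such probe sets arose. Probe sets annotated with several genes were not used for these levels.

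The livers came from male C57Bl/6J mice. From the age of 6 weeks all of them ate a diet with 60% fat (HFD) for 4 weeks, which made them obese, and then spent 4 more weeks in 1 of 3 arms. Each array is taken as 1 mouse. The canagliflozin arm (n = 5 arrays) received the drug on the diet at 30 mg/kg, given in the treatment protocol as 25 to 30 mg/kg. The caloric restriction arm (n = 5) had its intake cut by 15 to 30% so that its weight matched the drug arm. The HFD control arm (n = 4) stayed on the diet. Diet-induced obesity is thus shared by all 3 groups, and no lean animals were analysed here. Canagliflozin blocks SGLT2, by which the kidney takes glucose back from the filtrate. At issue is how hepatic transcripts differ under the drug from those of obese controls, and from those of mice brought to the same weight without it.

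FGF21 is a hormone that liver secretes in fasting, in ketogenic states and under cellular stress, and that acts on FGF receptors together with the co-receptor β-Klotho, the product of Klb. Leptin, a fat-derived hormone, acts through the leptin receptor, whose long form signals through JAK2 and STAT3 and whose soluble form binds leptin in plasma. Hepatic glucagon, growth hormone and adiponectin receptors steer glucose output, IGF-1 production and fatty acid oxidation, and IGF-1 circulates in a complex held together by the acid-labile subunit, the product of Igfals.

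Fgf21 and Lepr had the widest spread of the 10 genes, with higher means under canagliflozin than in either other group, and the same drug-treated mouse, replicate 3, was the exception in both. The fitted differences of the other 8 genes were at most 0.33 in size on the log2 scale. No member passed an adjusted p of 0.05 in any comparison when all 14 arrays were fitted with limma. Median log2 values of the 14 arrays lay between 4.07 and 4.13, and pairs of arrays correlated at 0.986 to 0.992 over genes. Canagliflozin replicate 3 had the lowest mean correlation with its own group of any array (0.9879). The other drug arrays lay close to it, at 0.9885 to 0.9888, so this measure hardly sets it apart. The results for Lepr, Fgf21, Ghr, Ppargc1a, Irs2 and Igfbp1 are given with and without replicate 3, the exception in Fgf21 and Lepr. The 6 hepatocyte markers averaged 12.90 to 12.96 under canagliflozin, 12.91 to 12.98 under restriction and 12.89 to 12.97 in HFD controls, while the 4 measured adipocyte markers averaged no more than 3.88 in any array. Leptin and adiponectin themselves (Lep and Adipoq) had dim means of 2.94 and 3.11. In such bulk tissue, fewer cells of a type and less RNA per cell cannot be told apart. Nothing in the labels says which arrays came from separate cages or litters, and p-values set group differences against the variation between these arrays.

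**Figure D1:**
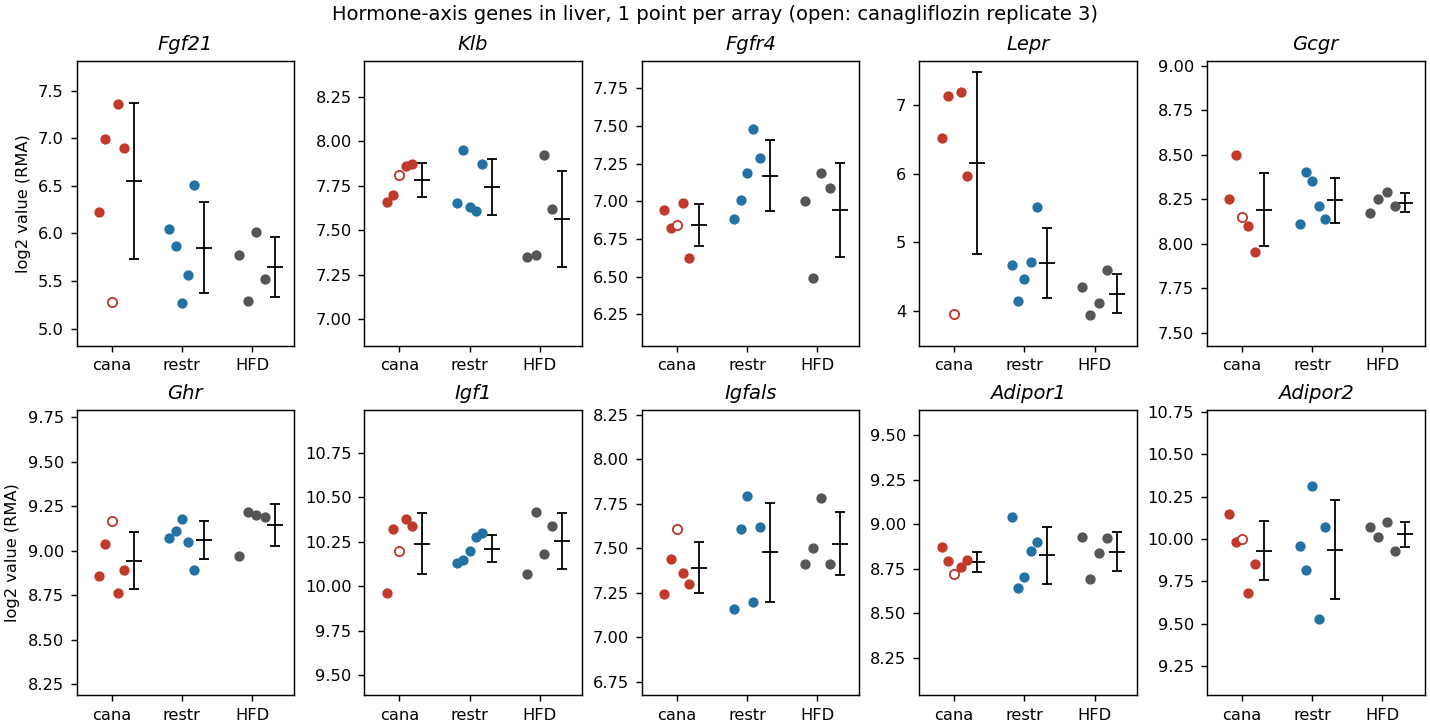
Log2 RMA value of each gene (y axis, in log2 units, with its own range per panel) in every array, for canagliflozin (cana), caloric restriction (restr) and HFD control (HFD); points run from replicate 1 on the left, the bars give the mean ± SD beside each group, and the open point is canagliflozin replicate 3. Lepr reached 5.97 to 7.19 in 4 of 5 drug-treated mice and 3.96 in replicate 3, against 3.94 to 4.60 in HFD controls.

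Fgf21 (chromosome 7, 45613890 to 45615490 of GRCm38.p6) measured 6.23, 6.99, 5.28, 7.36 and 6.90 in the canagliflozin mice, on the log2 scale. It measured 6.05, 5.87, 5.27, 5.56 and 6.51 under caloric restriction, and 5.77, 5.29, 6.02 and 5.52 in HFD controls. Of the 5 drug-treated mice 4 lay above every control and replicate 3 lay just below all of them, so the groups overlapped. The mean was 6.55 ± 0.82 under canagliflozin (SD, n = 5), 5.85 ± 0.47 under restriction (n = 5) and 5.65 ± 0.31 in controls (n = 4). The fitted difference of canagliflozin from HFD control was 0.90 ± 0.32 (SE) on the log2 scale, or 1.87-fold, with a 95% interval of 0.22 to 1.58 (limma adjusted p = 0.656 over all genes). Against caloric restriction it was 0.70 ± 0.31, or 1.62-fold, with 3 of 5 drug-treated mice above every restricted mouse (limma adjusted p = 0.81). Restriction and HFD control, the 2 neighbours at the low end, differed by 0.20 ± 0.32 (adjusted p = 0.999 in limma), less than their spread, and the interval of -0.48 to 0.89 leaves room for differences of either sign. Without restriction replicate 5 that difference was 0.04.

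The promoter of Fgf21 is shown because transcription factors measured below among its regulators bind motifs of the kinds searched. It is the 250 bases before the annotated start of the gene, from RefSeq on GRCm38.p6, and capitals mark matches to searched letters.

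Fgf21, chr7:45615491-45615740, minus strand: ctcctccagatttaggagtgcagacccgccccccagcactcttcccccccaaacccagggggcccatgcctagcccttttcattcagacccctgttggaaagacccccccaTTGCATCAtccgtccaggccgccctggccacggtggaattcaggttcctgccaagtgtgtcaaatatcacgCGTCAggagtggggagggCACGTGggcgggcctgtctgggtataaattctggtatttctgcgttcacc

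Letters searched on both strands were TTGCATCA, the composite core bound by ATF4 with C/EBP proteins, TGACG and TGACGTCA, the short and full cAMP response element, TTCNNNGAA, bound by STAT proteins, the direct repeat with 1 base between sites that nuclear receptors such as PPARα with RXR bind, and CACGTG, the E-box. The short element is contained in the full one. The Fgf21 window held TTGCATCA 139 to 132 bases before the start, CGTCA (the short element on the other strand) 68 to 64 bases before it and CACGTG 50 to 45 bases before it. Of 32851 promoter windows of this length, 0.791% held TTGCATCA, 17.8% the short element and 6.02% the E-box. The windows before both annotated transcript starts of Lepr held none of the 6, and both lie inside its annotated gene span, as do some windows of other members. All 10 genes had a RefSeq promoter, with 15 windows in all, and only that of Fgf21 held TTGCATCA. The full cAMP element and the nuclear receptor repeat, found in 1.55% and 0.0335% of all windows, were in none of the 15. These matches describe letters in short windows and show no binding.

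Klb, the co-receptor that FGF21 requires, measured 7.66, 7.70, 7.81, 7.86 and 7.87 under canagliflozin. Values were 7.65, 7.95, 7.63, 7.61 and 7.87 under restriction and 7.35, 7.36, 7.92 and 7.62 in HFD controls. All 10 treated mice lay above 2 of the 4 controls and below control replicate 3, apart from 1 restricted mouse, so the groups overlapped. Canagliflozin differed from HFD control by 0.22 ± 0.12 (SE; limma adjusted p = 0.796) and restriction from HFD control by 0.18 ± 0.12 (limma adjusted p = 0.999), while the drug and restriction differed by 0.04 ± 0.11. Both comparisons with HFD control share its arrays, and without HFD control replicate 3 they were 0.34 for canagliflozin and 0.30 for restriction.

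Fgfr4 encodes the main FGF receptor of hepatocytes, which with β-Klotho also receives the gut hormone FGF15 that restrains bile acid synthesis. It measured 6.94, 6.82, 6.84, 6.99 and 6.62 under canagliflozin, against 6.88, 7.01, 7.19, 7.48 and 7.29 under restriction. HFD controls, at 7.0, 6.49, 7.19 and 7.09, spanned most of both groups. Of the drug-treated mice 3 of 5 lay below every restricted mouse, and the difference from restriction was -0.33 ± 0.13 (SE), or 1.25-fold lower (limma adjusted p = 0.801). Against HFD control, canagliflozin differed by -0.10 ± 0.14 and restriction by 0.23 ± 0.14 (limma adjusted p = 0.944 and 0.999). Both depended on single controls: without HFD control replicate 2 they were -0.25 for canagliflozin and 0.08 for restriction, and without HFD control replicate 3 they were -0.02 and 0.31. HFD control therefore had no settled place near either group.

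Over a list of 16 other measured genes of FGF receptor signalling and FGF21 turnover, 7 had higher and 9 lower means under canagliflozin than in HFD controls, with a median difference of -0.01 on the log2 scale against -0.00085 over all genes. None passed the adjusted threshold in either direction in limma, and 1 had an unadjusted p under 0.05. That gene was Fgfr3, another FGF receptor, which measured 5.67, 5.17, 5.52, 5.37 and 5.21 under canagliflozin and 5.94, 6.06, 6.18 and 6.23 in HFD controls. All 5 drug-treated mice lay below all 4 controls, and the difference was -0.72 ± 0.16 (SE), or 1.65-fold lower (limma adjusted p = 0.417). Restricted mice measured 5.66 to 6.53, and canagliflozin differed from them by -0.48 ± 0.15 (limma adjusted p = 0.683). Spry4, a feedback inhibitor of receptor tyrosine kinase signalling, differed by -0.34 ± 0.22 against HFD control and -0.56 ± 0.21 against restriction. Cyp7a1, whose product starts bile acid synthesis and which FGF15 and FGFR4 signalling represses, differed by 0.42 ± 0.30 between drug and control. Between drug and restriction it differed by 0.21 ± 0.28. Nr0b2, which encodes the repressor SHP, differed by -0.18 ± 0.26 between drug and control and by -0.54 ± 0.25 between drug and restriction. Restriction lay above control in Nr0b2 by 0.36 ± 0.26. Against HFD control, restriction gave 8 higher and 8 lower means in this list, with none at an unadjusted p under 0.05.

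Among 15 measured regulators of Fgf21 transcription, 6 had higher and 9 lower means in drug-treated mice than in HFD controls (median -0.05), and none passed the adjusted threshold. Ppargc1a, a coactivator of the fasting response, measured 7.13, 7.52, 6.66, 8.52 and 8.01 under canagliflozin, 6.08 to 7.26 under restriction and 6.08, 6.60, 6.51 and 6.53 in HFD controls. Each drug-treated mouse lay above each control, by 1.14 ± 0.29 on average (limma adjusted p = 0.559), and replicate 3 was again the lowest of the 5. Without it the difference was 1.37 ± 0.26 (limma adjusted p = 0.0708). Mlxipl, which encodes the carbohydrate-sensing factor ChREBP, differed by -0.32 ± 0.15, and Thrb, a thyroid hormone receptor, by -0.25 ± 0.11. Atf4, whose product with C/EBP proteins binds motifs of the composite core type, measured 6.80 on average under the drug and 6.61 in controls, a difference of 0.18 ± 0.10 (limma adjusted p = 0.796). Binding to the letters matched in the Fgf21 window was not tested.

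Lepr (chromosome 4, 101717137 to 101815352) measured 6.52, 7.13, 3.96, 7.19 and 5.97 in the canagliflozin mice. Under caloric restriction it measured 4.67, 4.14, 4.47, 4.71 and 5.51, and in HFD controls 4.35, 3.94, 4.11 and 4.60. Drug-treated replicates 1, 2, 4 and 5 lay above every restricted and every control mouse, whereas replicate 3 sat within the controls. The control values lay near the array medians, and no detection call was used here. Means were 6.15 ± 1.32 under canagliflozin (SD, n = 5), 4.70 ± 0.50 under restriction (n = 5) and 4.25 ± 0.29 in HFD controls (n = 4). The drug differed from HFD control by 1.90 ± 0.47 (SE), or 3.74-fold with a 95% interval of 1.89 to 7.39 (limma adjusted p = 0.559), and from restriction by 1.45 ± 0.44, or 2.74-fold (adjusted p = 0.683 in limma). Since this gene was picked with that pattern known, these p-values describe it and add no independent support. Restriction differed from HFD control by 0.45 ± 0.47 (limma adjusted p = 0.999), with 3 of 5 restricted mice above every control, and by 0.25 without restriction replicate 5. The probe set summarises the gene, and its long, short and soluble forms were not told apart.

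Markers of other cells were compared beside the Lepr difference. The 4 measured adipocyte markers, of which 1 had a higher mean under the drug, averaged 3.57 to 3.84 per array under canagliflozin and 3.72 to 3.88 in HFD controls. The 6 stellate cell markers, 3 of them higher, averaged 6.90 to 7.14 under the drug and 6.91 to 7.24 in controls. For 6 sinusoidal endothelial markers, 3 higher, the ranges were 7.60 to 8.0 and 7.50 to 7.96, and for 6 macrophage markers, 5 higher, 6.69 to 7.20 and 6.33 to 7.28, again with the drug first. The 4 measured cholangiocyte markers, 1 higher, averaged 4.23 to 4.56 under the drug and 4.26 to 4.54 in controls. For 4 measured lymphocyte markers, 1 higher, the ranges were 4.09 to 4.31 and 4.14 to 4.24. The ranges overlapped in each of these sets. Against restriction, whose macrophage markers averaged 6.19 to 7.06, all 6 macrophage markers had higher means under the drug. The adipocyte, stellate, endothelial, cholangiocyte and lymphocyte sets each had as many higher as lower means against restriction. The part of any of them in the Lepr and Fgf21 differences was not tested.

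Without canagliflozin replicate 3, Lepr passed the threshold in both comparisons of the drug. It averaged 6.70 ± 0.58 in the other 4 mice (SD, n = 4) and was higher by 2.45 ± 0.27 (SE) than in HFD controls (5.46-fold, limma adjusted p = 0.00214) and by 2.00 ± 0.26 than under restriction (4-fold, limma adjusted p = 0.00709). Of all genes 12 (0.0541%) and 16 (0.0721%) were called in these fits, and of the 10 members only Lepr. Fgf21 then averaged 6.87 ± 0.47 in drug-treated mice, higher than HFD control by 1.22 ± 0.25, or 2.33-fold, and above all 4 controls in 4 of 4 mice (adjusted p = 0.0873 in limma). Against restriction its difference was 1.02 ± 0.24 (limma adjusted p = 0.214). Dropping replicate 3, the lowest drug-treated mouse in both genes, raises the drug mean and makes the drug group narrower by construction. The same holds for Ppargc1a, Irs2 and Igfbp1. Drug-treated and other mice then did not overlap for Fgf21 and Lepr against HFD control (2 of 10 members, against 2.16% of all genes that were higher without overlap) and for Lepr against restriction (1 of 10, against 1.14%). Leaving out replicate 3 fixed these separations in advance, since the other 4 drug-treated mice already lay above every mouse compared. The array was not picked this way for all genes, so setting the member counts against those shares adds no support.

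**Figure D2:**
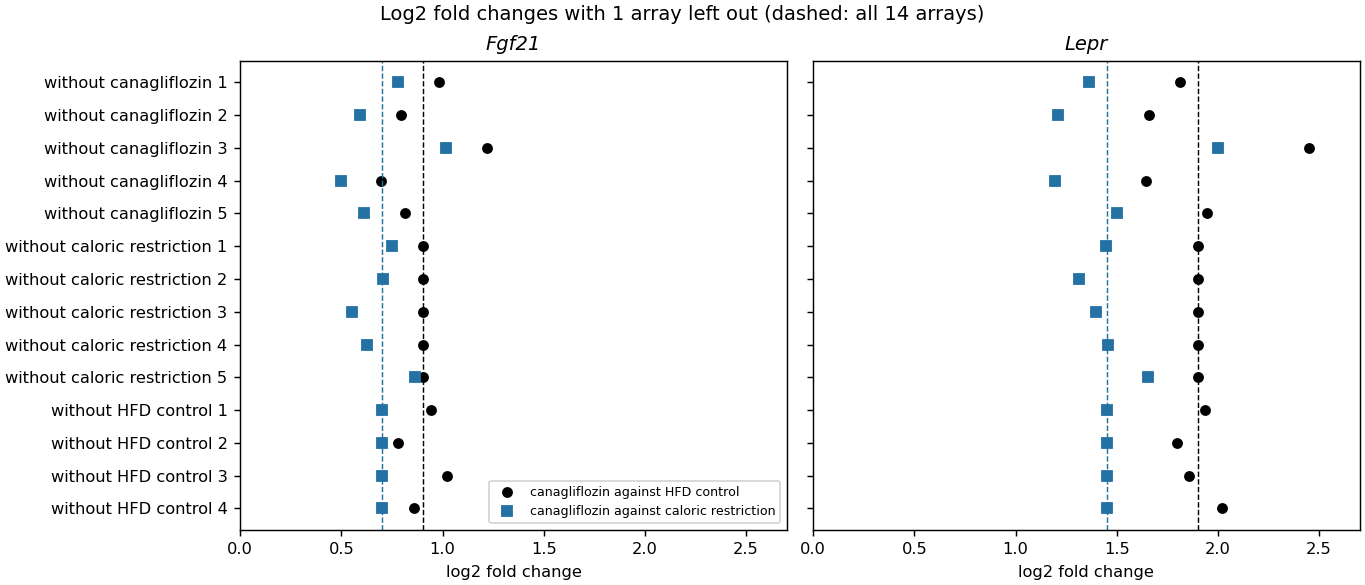
Fitted log2 fold change (x axis, log2 units) of Fgf21 and Lepr with each array left out in turn (y axis), for canagliflozin against HFD control (circles) and against caloric restriction (squares); dashed lines give the values with all 14 arrays. Every value was above 0, and the highest, 1.22 for Fgf21 and 2.45 for Lepr against HFD control, came without canagliflozin replicate 3.

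Of 12 measured genes of leptin receptor trafficking and signalling, 9 had higher and 3 lower means under canagliflozin than in HFD controls (median 0.09), and none passed the adjusted threshold in limma. Leprot, which lies upstream of Lepr on the same chromosome and whose product limits the receptor's surface level, measured 6.71 to 7.16 under the drug, 6.91 to 7.02 under restriction and 6.78 to 7.05 in HFD controls, so its groups overlapped where those of Lepr lay apart in 4 of 5 mice. Irs2, an adaptor of insulin and leptin signalling, measured 7.77, 7.34, 6.19, 8.39 and 7.09 under canagliflozin and 6.51, 6.83, 6.33 and 6.74 in HFD controls. As for Lepr, replicates 1, 2, 4 and 5 were above every control and replicate 3 was not; the difference in Irs2 was 0.75 ± 0.29 (SE; limma adjusted p = 0.68), and 1.04 ± 0.21 without replicate 3 (limma adjusted p = 0.0873). Pik3r1, the regulatory subunit of PI3-kinase, ran lower, by -0.37 ± 0.13 against HFD control and by -0.35 ± 0.12 against restriction, where 4 of 5 drug-treated mice lay below all restricted mice (limma adjusted p = 0.634 and 0.719). The phosphatase gene Ptpn1, whose product dampens leptin and insulin receptor signalling, differed by 0.16 ± 0.09 from HFD control and its relative Ptpn2 by -0.15 ± 0.10. Against restriction 8 genes of the list were higher and 4 lower (median 0.07), and between restriction and HFD control 5 were higher and 7 lower, the smallest p belonging to Sh2b1, a JAK2-binding adaptor (0.11 ± 0.11).

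Gcgr, the glucagon receptor, had a mean of 8.19 ± 0.20 under canagliflozin (SD, n = 5), 8.24 ± 0.13 under restriction (n = 5) and 8.23 ± 0.05 in HFD controls (n = 4). Drug-treated mice ranged from 7.95 to 8.50, restricted mice from 8.11 to 8.40 and HFD controls from 8.17 to 8.29, so the drug group was the widest and enclosed both others. The drug differed from HFD control by -0.04 ± 0.11 (SE) with a 95% interval of -0.26 to 0.19, and from restriction by -0.05 ± 0.10 with an interval of -0.26 to 0.16. Restriction differed from HFD control by 0.01 ± 0.11 (limma adjusted p from 0.954 to 0.999 in the 3 comparisons). The intervals bound each fold change below about 1.2 in either direction for these samples. Of 16 measured genes of glucagon receptor and cAMP signalling, 8 were higher and 8 lower in drug-treated mice than in HFD controls (median 0.02), with none at an unadjusted p under 0.05. Pde3b, a phosphodiesterase that breaks down cAMP, differed by 0.19 ± 0.09 and lay above all controls in 4 of 5 mice (limma adjusted p = 0.781). Between drug and restriction 10 were higher and 6 lower, and 2 stood out by unadjusted p, in opposite directions. Pde4d, another phosphodiesterase gene, was higher by 0.21 ± 0.09, with 2 of 5 drug-treated mice above all restricted mice (limma adjusted p = 0.807). Prkaca, the main catalytic subunit of protein kinase A, lay below all 5 restricted mice in 5 of 5 drug-treated mice (-0.25 ± 0.11, limma adjusted p = 0.807). Its value was read from the brighter of 2 probe sets annotated with Prkaca alone, and the other is not given. Of all genes, 0.929% had groups that did not overlap in this comparison.

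Ghr, the growth hormone receptor, measured 8.86, 9.04, 9.17, 8.76 and 8.89 under canagliflozin. Restricted mice measured 9.07, 9.11, 9.18, 9.05 and 8.89, and HFD controls 8.97, 9.22, 9.20 and 9.19. Drug-treated mice lay below every control in 3 of 5 cases, and the exceptions were replicates 2 and 3; control replicate 1 was the low one of its group. The difference of drug from HFD control was -0.20 ± 0.10 (SE), or 1.15-fold lower, with an interval of -0.41 to 0.01 (limma adjusted p = 0.783). Against restriction it was -0.11 ± 0.09, and restriction against HFD control -0.09 ± 0.10 (limma adjusted p = 0.892 and 0.999). Without canagliflozin replicate 3 the drug differed by -0.25 ± 0.10 from HFD control and by -0.17 ± 0.09 from restriction (limma adjusted p = 0.555 and 0.747), and without canagliflozin replicate 4 by -0.15 and -0.07. Replicate 3 was the highest drug-treated mouse in Ghr (9.17), so leaving it out lowers the drug mean and narrows the group by construction. Replicate 4 was the lowest (8.76), and leaving it out raises the mean. With all arrays the means ran canagliflozin, restriction and HFD control from low to high, with each step inside the spread.

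Igf1, the main endocrine product of growth hormone action on liver, had means of 10.24 ± 0.17, 10.21 ± 0.08 and 10.25 ± 0.16 in drug-treated (SD, n = 5), restricted (n = 5) and HFD control mice (n = 4). These 3 means lay within 0.04 of each other, and all 14 values lay between 9.96 and 10.42. The 95% interval of the drug's difference from HFD control was -0.23 to 0.21. Igfals, which encodes the acid-labile subunit, ranged from 7.24 to 7.61 under canagliflozin, 7.16 to 7.79 under restriction and 7.41 to 7.78 in HFD controls. Of the drug-treated mice 3 of 5 lay below all controls. The 5 together differed from HFD control by -0.14 ± 0.13 (SE; limma adjusted p = 0.904), or by -0.05 without HFD control replicate 3, and restriction differed from HFD control by -0.05 ± 0.13. The promoter windows of Igfals held TTCNNNGAA at 2 of 3 annotated starts, a match found in 7.02% of all windows and in those of no other member.

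In the list of 13 other measured genes of growth hormone and STAT5 signalling, 6 were higher and 7 lower under the drug than in HFD controls (median -0.05), and none passed. Elovl3, a male-biased fatty acid elongase, measured 10.75, 11.03, 10.87, 11.45 and 10.88 under canagliflozin and 9.32, 9.46, 10.51 and 10.02 in HFD controls, without overlap, a difference of 1.17 ± 0.30 (SE; limma adjusted p = 0.559). Restricted mice ranged from 9.78 to 11.78 and differed from HFD control by 0.81 ± 0.30 (limma adjusted p = 0.999). Hsd3b5, a male-biased steroid dehydrogenase, ran the other way, by -0.60 ± 0.34 for the drug and -0.28 ± 0.34 for restriction. Of 14 measured IGF ligands, receptors and binding proteins, 6 were higher and 8 lower in drug-treated than in HFD control livers (median -0.003). Igfbp1, a binding protein that insulin represses, stood apart at 10.39, 11.36, 8.71, 12.49 and 10.68 under canagliflozin against 8.27, 8.92, 8.65 and 8.72 in HFD controls, a difference of 2.09 ± 0.55 (limma adjusted p = 0.559), with replicate 3 inside the control range. Without replicate 3 Igfbp1 was higher than in HFD controls by 2.59 ± 0.45 and passed the threshold (limma adjusted p = 0.0486). Replicate 3 was the lowest drug-treated mouse in Igfbp1, so leaving it out raises the drug mean and narrows the group by construction. Restricted mice measured 8.69, 8.63, 8.74, 10.29 and 10.54, so 2 of 5 lay above all controls, and the drug's mean was above that of restriction by 1.35 ± 0.52 (limma adjusted p = 0.801), or by 1.85 ± 0.43 without replicate 3 (limma adjusted p = 0.211). Igfbp2 differed by 0.38 ± 0.20 and Igfbp3, the partner of the acid-labile subunit, by 0.16 ± 0.15 between drug and control. Against restriction 11 of the 14 were higher under the drug and 3 lower, with a median of 0.08.

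Adipor1 and Adipor2, the adiponectin receptors, differed by at most 0.10 in size between any groups. Adipor1 averaged 8.79 ± 0.06 under canagliflozin (SD, n = 5), 8.83 ± 0.16 under restriction (n = 5) and 8.85 ± 0.11 in HFD controls (n = 4), and Adipor2 averaged 9.93 ± 0.18, 9.94 ± 0.29 and 10.03 ± 0.07 in the same order. For Adipor1 the drug differed from HFD control by -0.06 ± 0.09 (SE), and for Adipor2 by -0.10 ± 0.13 with an interval of -0.38 to 0.18. Adipor2 spread most under restriction, from 9.53 to 10.31, and least in HFD controls, from 9.93 to 10.10. Of 14 other measured genes of adiponectin signalling and related receptors, 7 were higher and 7 lower under the drug than in HFD controls (median 0.007). Paqr7, a progestin receptor of the same protein family, ran lower by -0.37 ± 0.14 under the drug and by -0.38 ± 0.14 under restriction, each against the same HFD controls and with 3 of 5 mice below all of them (limma adjusted p = 0.672 and 0.999). Cdh13, which encodes the adiponectin-binding T-cadherin, differed by -0.25 ± 0.11 between drug and restriction (limma adjusted p = 0.805).

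**Figure D3:**
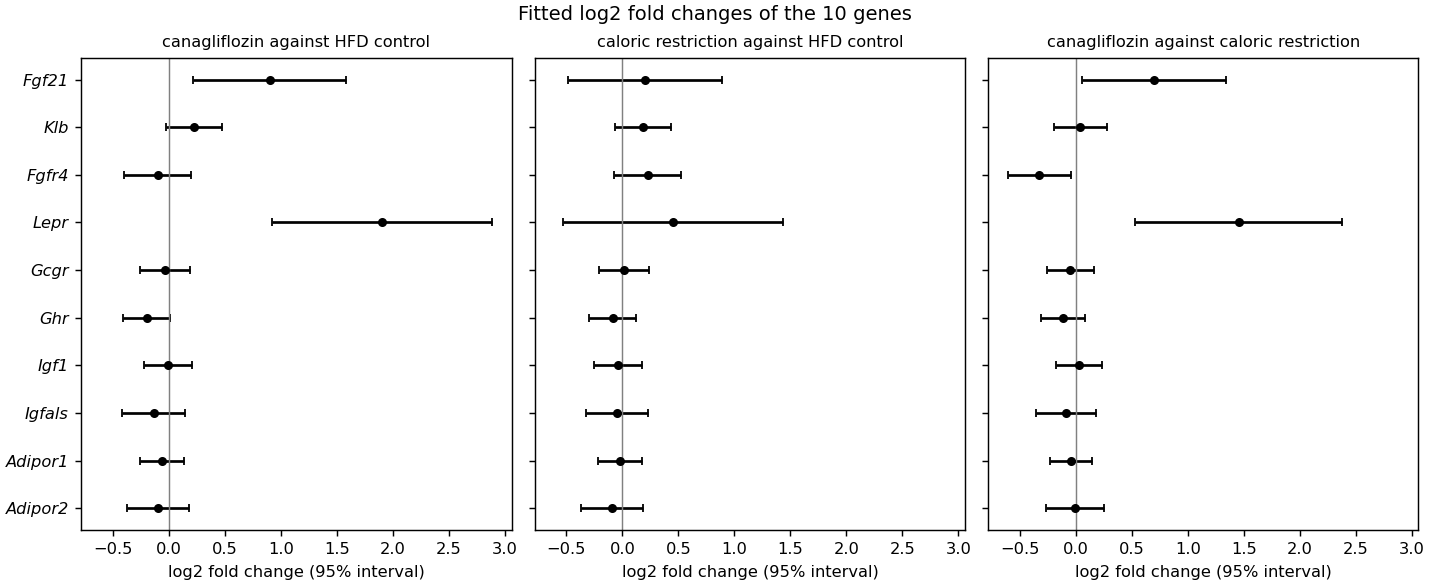
Fitted log2 fold change with its 95% interval (x axis, log2 units) of the 10 genes (y axis) in the 3 comparisons, from limma over 14 arrays (5 canagliflozin, 5 caloric restriction, 4 HFD control). For canagliflozin against HFD control, the intervals of Fgf21 (0.22 to 1.58) and Lepr (0.92 to 2.89) lie above 0 before adjustment, and the others cross it.

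Counted over the members, 0 of 10 passed the adjusted threshold for canagliflozin against HFD control, where 0% of all genes did. At an unadjusted p under 0.05 there were 2 of 10, Fgf21 and Lepr, against 6.51% of all genes, and 0 of 10 had groups that did not overlap, against 1.95%. Fgfr3, Ppargc1a and Elovl3, which are not members, were among the genes in that 1.95%. For restriction against HFD control, 0 of 10 passed (0% of all genes), 0 of 10 had an unadjusted p under 0.05 (3.93%) and 0 of 10 had separate groups (1.4%). For canagliflozin against restriction, 0 of 10 passed (0.00451%, that is 1 gene, Rtkn, named after its values were seen), 3 of 10 had an unadjusted p under 0.05 (6.05%), namely Fgf21, Lepr and Fgfr4, and 0 of 10 had separate groups (0.929%). Because the members were chosen with results known, these shares are no evidence about the group as a whole. Their median difference was -0.05 for drug against HFD control, with 3 higher and 7 lower means (49.7% and 50.3% of all genes). For restriction against HFD control 5 were higher and 5 lower (50.5% and 49.5%), and for drug against restriction 4 and 6 (49% and 51%).

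**Figure D4:**
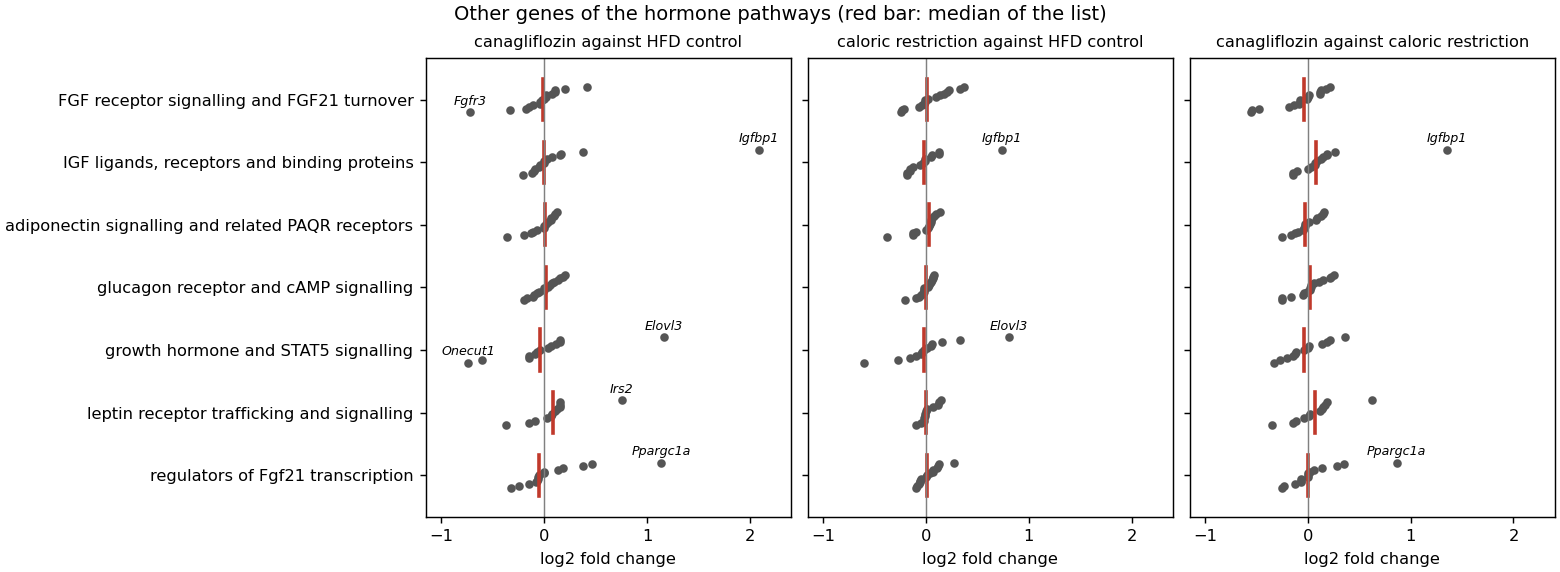
Log2 fold change (x axis, log2 units) of each measured gene in 7 lists of other pathway genes (y axis), 1 point per gene, in the 3 comparisons; red bars are list medians and genes past 0.7 in size are named. Medians lay between -0.05 and 0.09, and Igfbp1 reached 2.09 for canagliflozin against HFD control.

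Fgf21, Lepr and Ghr varied together over the 14 arrays, Ghr in the opposite direction. Over the 14 arrays, Fgf21 and Lepr correlated at r = 0.875 (rho = 0.789), at 0.803 after each group's mean was removed and at 0.742 without the 2 arrays farthest from the median of Fgf21. Ghr ran opposite to both, at r = -0.789 with Fgf21 (rho = -0.745, within groups -0.697) and at r = -0.779 with Lepr (rho = -0.82, within groups -0.668). Without canagliflozin replicate 3 the values of r were 0.863 for Fgf21 and Lepr, -0.773 for Fgf21 and Ghr and -0.763 for Lepr and Ghr. Restricted replicate 5 shows the same arrangement outside the drug group, since it had the highest Fgf21 (6.51) and Lepr (5.51) and the lowest Ghr (8.89) of its arm. Within the 4 HFD controls it was weak, at r = 0.113 for Fgf21 and Lepr, -0.315 for Fgf21 and Ghr and -0.331 for Lepr and Ghr. Control replicate 2, lowest in Fgf21 (5.29) and Lepr (3.94), was highest in Ghr (9.22). Against it, control replicate 3, highest in Fgf21 (6.02), had 4.11 in Lepr and 9.20 in Ghr. Control replicate 4, highest in Lepr (4.60), had 5.52 in Fgf21. The values after removal of group means pool all 3 groups and so rest mostly on the drug and restriction arms, where these genes spread more. These were the only 3 of 45 pairs of members with a size of r above 0.7, the median size being 0.231. The pairs are described without a test, since the arrays share the group structure and the joint normalization.

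**Figure D5:**
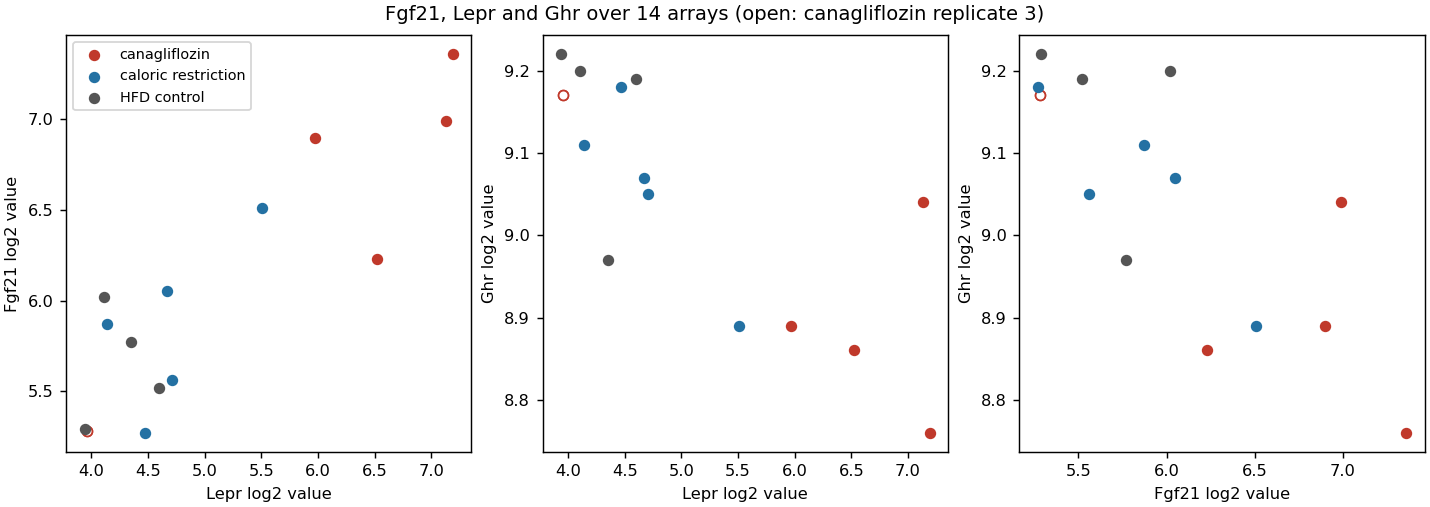
Log2 values of Fgf21, Lepr and Ghr plotted against each other, 1 point per array, coloured by canagliflozin, caloric restriction and HFD control, with canagliflozin replicate 3 as an open point. Fgf21 and Lepr run together (r = 0.875) and Ghr runs opposite to both (r = -0.789 and -0.779), with replicate 3 among the controls.

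Among 8742 candidate genes with a mean of at least 5, the 5 most like Fgf21 by Pearson's r over 14 arrays were Ei24, Slc22a5, Itgb3, Rab30 and Lpin2, with r from 0.898 to 0.919. The closest, Ei24, measured 9.82, 9.84, 9.50, 9.90 and 9.80 under canagliflozin and 9.52, 9.55, 9.57 and 9.56 in HFD controls, and kept r = 0.876 within groups. Slc22a5 encodes the carnitine transporter OCTN2, Itgb3 an integrin subunit, Rab30 a small GTPase and Lpin2 a phosphatidate phosphatase. The 5 most like Lepr were Slc22a5, Fh1, Tbc1d8, Nnmt and Igfbp1, with r from 0.914 to 0.934. Slc22a5 thus stood in both lists, at 7.44, 7.71, 6.46, 7.76 and 7.53 under canagliflozin, 6.53, 6.78, 6.75, 6.61 and 7.37 under restriction and 6.63, 6.48, 6.87 and 6.91 in HFD controls. In it replicate 3 was again the low drug-treated mouse, and restricted replicate 5 the high one of its arm. Fh1, the fumarase, differed by 0.60 ± 0.13 (SE) between drug and HFD control and by -0.01 ± 0.13 between restriction and HFD control (limma adjusted p = 0.432 and 0.999), and Nnmt, which methylates nicotinamide, by 0.66 ± 0.18 and 0.06 ± 0.18. The likeness was picked as the highest of all candidates and is a description.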

How the data were processed

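Total liver RNA (250 ng) was labelled by the Affymetrix WT Plus protocol, per the labels' protocols. The deposited values are log2 RMA expression per probe set, which the authors computed in Expression Console according to the submitters' processing notes. Its version, the library files and the build are not given. RMA equalises arrays, so a global difference in RNA would not be seen. The number of arrays sets the precision.

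Groups and replicate numbers came from the titles. The platform annotation gave a single gene symbol for 23521 of 41345 probe sets, several for 1814 and no entry for 16010; 23328 identifiers matched RefSeq. The brightest single-symbol probe set per gene gave 22180 genes, tested with no filter. A limma model (version 3.58.1, R 4.3.3; lmFit, eBayes) held the 3 group means over 14 arrays, with Benjamini-Hochberg adjustment over all genes per comparison, at 0.05, and was tested on simulated data. Group errors are SD, and errors of differences SE.

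The members, the 7 pathway lists and the markers were chosen with earlier results of these data known. From each list, up to 4 genes with the smallest p per comparison were named, and the 5 genes most correlated with Fgf21 and with Lepr. List genes with no single-symbol probe set were not used here. Alternatives (normalization, filter, weights, blocks, arrays left out) are in the closing section.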

Additional observations from a re-analysis of the deposited data

Results flagged for a closer look

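Of 30 sets of values tested (10 genes in 3 groups), 1 held a sample far from the others of its group. Ghr measured 8.97 in HFD control replicate 1, against 9.19 for the nearest of the other 3 controls, a gap of 0.875 of the group's range where 0.829 is the limit for 4 samples. Chance gives about 1 such case in 20 sets. Without that array the difference of canagliflozin from HFD control in Ghr was -0.25. Canagliflozin replicate 3, low in Fgf21 and Lepr, did not meet this limit in either gene.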

How the results depend on the processing

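Over 30 member results and 24 other settings, 690 of 720 values kept their direction and side of the threshold, 2 passed it (Lepr in both drug comparisons without canagliflozin replicate 3) and 28, in 11 results of small size, changed sign. Fgf21 and Lepr kept theirs in each. With other settings than leaving out arrays, canagliflozin against HFD control ranged from 0.78 to 0.94 for Fgf21 (adjusted p from 0.54 to 0.762) and from 1.82 to 1.93 for Lepr (0.388 to 0.683).

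Signs changed for Adipor2 between drug and restriction with cyclic loess (0.00114) and array weights (0.000125), and for Igf1 between drug and HFD control with cyclic loess (0.0028) and the accession order as covariate (0.0070). That order gave 1 gene called in each comparison with HFD control, where 0 passed; testing genes with a mean of at least 5 gave 1 for the drug, and a fit of only the 2 groups gave 0 against restriction. The cause was not tested.

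Leaving out each array moved the genes called from 0 to 12 for drug against HFD control (1 without canagliflozin replicate 5, 12 without replicate 3) and from 0 to 16 for drug against restriction, with the members called from 0 to 1 in both. Against restriction 2 were called without canagliflozin replicate 2 and 0 without canagliflozin replicate 1, 4 or 5, restriction replicate 1, 2, 3 or 4 or HFD control replicate 2. Lepr ranged from 1.64 to 2.45 against HFD control and from 1.20 to 2.00 against restriction, and Fgf21 from 0.70 to 1.22 and from 0.50 to 1.02. Ranges across 0 for drug against HFD control were -0.11 to 0.022 (Gcgr) and -0.071 to 0.059 (Igf1). For restriction against HFD control they were -0.024 to 0.048 (Gcgr), -0.097 to 0.018 (Igf1), -0.13 to 0.036 (Igfals), -0.075 to 0.025 (Adipor1) and -0.18 to 0.012 (Adipor2). For drug against restriction they were -0.13 to 0.0073 (Gcgr), -0.0083 to 0.096 (Igf1), -0.086 to 0.014 (Adipor1) and -0.11 to 0.084 (Adipor2).

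With the replicate number as a block, Gcgr differed by 0.0054 between drug and HFD control, a change of sign, 2 genes were called between drug and restriction, and no call of a member changed. Deviations of same-numbered arrays correlated at -0.089 to 0.198 over 13 pairs, 3 of them above 0.1. All 4 pairs of canagliflozin with HFD control were above 0. The own number was the best match in 9 of 26 cases, among the 4 or 5 arrays of the other group, and this share was not tested against chance. Not every pair was above 0.1, and no label ties the numbers to a shared batch, so they were not taken as pairs; whether they mark anything shared is not settled by these values.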
